A study of Mus musculus with 9 samples.

Results

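The lysosome genes described here encode enzymes, membrane proteins and proton pump subunits of the acid compartment in which cells digest proteins, sugars and lipids. They are 42 genes taken from a list by their function, and all 42 had a probe set among the 19938 genes tested. The rule holds no measured value, but the list was chosen with earlier results of these data known. Expression was measured on 9 arrays of RNA from D2.OR, a line of mouse mammary tumor cells whose spread cells are known for staying dormant for long periods, in 3D culture. By their titles, 3 arrays came from cells in fibrillar collagen I, in which the collagen is assembled into fibers, 3 from cells in non-fibrillar collagen I and 3 from cells in Matrigel, an extract rich in basement membrane proteins. By its title, the study concerned fibrillar collagen in the protection that pregnancy gives against mammary cancer, and its design text lists the collagen conditions without Matrigel. All groups share this 1 cell line. The labels give no treatment, time or culture density. They do not say whether the replicates were grown separately, so a p-value weighs a difference only against the spread among these arrays, and that spread may be technical. The Matrigel group rests on its titles, because the growth label of those arrays names non-fibrillar collagen I. The Matrigel samples also have later deposit numbers and a different description field. A batch that follows these and the effect of the matrix cannot be told apart.

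Lysosomal enzymes are made as precursors, tagged with mannose 6-phosphate and carried to the lysosome by receptors for that tag. A proton pump of the vacuolar type, built from a membrane sector (V0) and a cytosolic sector (V1), acidifies the lumen so that the enzymes work, and heavily glycosylated membrane proteins shield the limiting membrane. Many of these genes are known to share a promoter element that is bound by the related transcription factors TFEB, TFE3 and MITF, which respond to nutrient state and lysosomal stress. Cathepsin release by tumor cells is also known for its part in the remodelling of collagen and basement membrane.

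By group mean, expression of most lysosome genes was intermediate in fibrillar collagen, lowest in non-fibrillar collagen and highest in Matrigel. Group means followed that order for 34 of 42 members (81.0%) and for 19.9% of all genes tested. Very small steps count in it too, such as those of Lamp2 (log2 0.003) and Glb1 (log2 0.013) between the collagen forms. The highest mean was in fibrillar collagen for 3 members (Gusb, Arsa and Cln3), in non-fibrillar collagen for 1 (Ctsl) and in Matrigel for 38. The lowest was in fibrillar collagen for 5 (Ctsc, Ctsk, Ctsl, Ctsz and Asah1) and in non-fibrillar collagen for 37. For 16 members (38.1%, against 2.19% of all genes) all 3 non-fibrillar arrays lay below all 3 fibrillar arrays, and these below all 3 Matrigel arrays. The 3 comparisons share arrays, so this order is a description and not a test. The members were mostly bright. Apart from Ctsk, at percentile 36.0 of mean level among all genes tested, they ranged from percentile 62.2 (Arsa) to 99.8 (Ctsb). The shares of all genes given here and below include many dimmer genes, and shares among genes of like level were not computed.

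**Figure D1:**
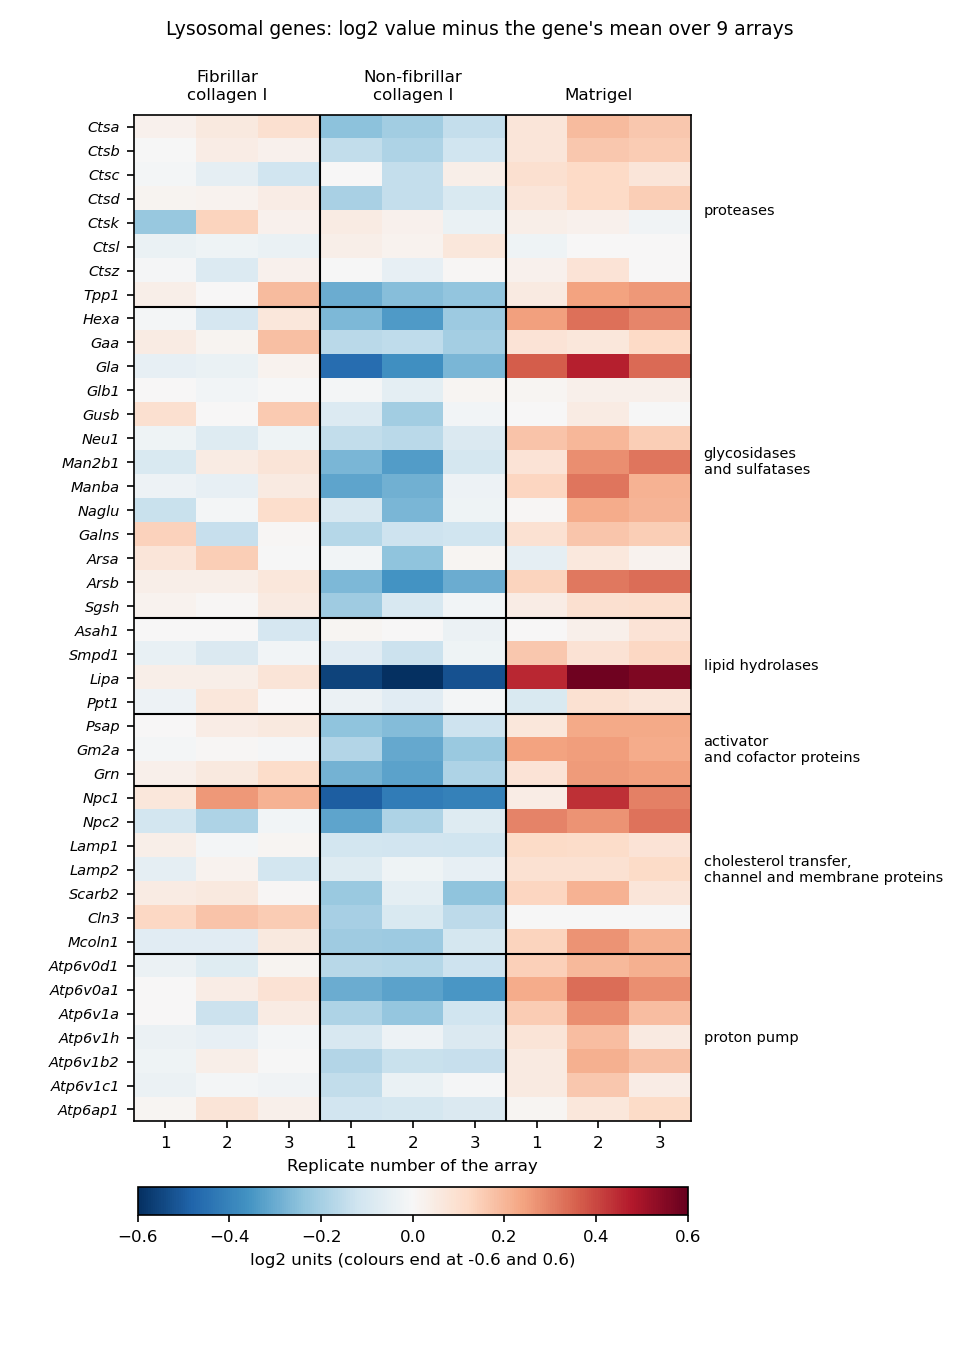
Heat map of the 42 lysosome genes (rows, grouped by role) on 9 arrays (columns: fibrillar collagen I, non-fibrillar collagen I and Matrigel, replicates 1 to 3 each), coloured by the log2 value minus the gene's mean over the 9 arrays. Most rows run from blue in non-fibrillar collagen through pale in fibrillar collagen to red in Matrigel, with Lipa, Gla and Npc1 the deepest; Ctsk, Ctsl, Ctsz, Glb1 and Asah1 stay pale or mixed.

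Differences below are in log2 units, with limma's standard error (SE), as fibrillar minus non-fibrillar collagen, fibrillar collagen minus Matrigel or non-fibrillar collagen minus Matrigel. In fibrillar against non-fibrillar collagen, 14 of 42 members were higher, 0 were lower and 28 did not pass (limma with Benjamini-Hochberg adjustment over all genes tested, threshold 0.05). At an unadjusted p under 0.05 there were 26 higher and 0 lower. Of all genes tested, 2.71% were called higher and 3.69% lower in that comparison. The members' median log2 difference was 0.15, against 0.0080 over all genes. The arrays of both groups did not overlap for 25 members that were higher and 1 that was lower, where 11.6% of all genes did not overlap upward and 13.6% downward. In fibrillar collagen against Matrigel, 0 members were higher, 8 were lower and 34 did not pass (1 and 21 at an unadjusted p under 0.05), where 1.45% of all genes were called higher and 2.37% lower. The members' median was -0.13, against 0.0028 over all genes, and groups did not overlap for 1 higher and 26 lower members (9.05% and 11.3% of all genes). In non-fibrillar collagen against Matrigel, 0 members were higher, 31 were lower and 11 did not pass (0 and 34 at an unadjusted p under 0.05), where 6.75% of all genes were called higher and 7.07% lower. There the median was -0.28, against 0.00061 over all genes, and groups did not overlap for 1 higher and 35 lower members (14.4% and 14.0% of all genes).

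The number of calls between the collagen forms fell whichever array was left out. Each refit also had fewer arrays to estimate the spread from, so a lost call does not single out an array. Leaving out fibrillar replicate 1, 2 or 3 gave 6, 4 or 3 members. Non-fibrillar replicate 1, 2 or 3 left out gave 4, 5 or 8. All were higher in fibrillar collagen. Lipa, Npc1 and Atp6v0a1 were called in each of these refits, and Arsb in all but that without fibrillar replicate 3 (adjusted p = 0.0506). Grn and Cln3 lost their calls in 4 of the 6 refits, Ctsa, Gla and Psap in 5, and Ctsb, Tpp1, Hexa, Gaa and Gm2a in all 6. Fibrillar collagen against Matrigel gave 4 lower members without fibrillar replicate 1 or 2 and 3 without Matrigel replicate 2. Lipa, Gla and Npc2 were called there in all 6 refits, while Neu1 and Gm2a lost the call in 2, Hexa in 3 and Atp6v0d1 and Atp6v0a1 in 4. Non-fibrillar collagen against Matrigel gave 25 to 29 whichever array was left out.

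The promoters of these genes were searched for letters of the shared element named above. The motifs were the 6 letters CACGTG, the core to which TFEB and its relatives bind, and the 8 letters TCACGTGA that contain it; each reads the same on both strands, and every match of the longer motif is also one of the shorter. RefSeq windows (GRCm38.p6) of 250 bases before to 50 after the start site were at hand for 35 of 42 members. The 8 letters occurred in 7 of these 35 (20%), against 1.52% of the 15614 measured genes with a window. The 6 letters occurred in 14 (40%), against 9.5%. Members with the 8 letters were Ctsa, Ctsd, Gla, Cln3, Mcoln1, Atp6v0d1 and Atp6v1a. In non-fibrillar collagen against Matrigel, the 8 letters were in 7 of 26 members that passed and 0 of 9 that did not, and the 6 letters in 10 of 26 and 4 of 9. In fibrillar collagen against Matrigel the 8 letters were in 2 of 8 that passed and 5 of 27 that did not, and between the collagen forms in 3 of 12 and 4 of 23. These shares were not tested against each other. Many lysosome genes were already known to hold this element and the members were picked by function. A share above that of all genes is therefore not separate evidence. A match is a description of the letters only, and binding was not measured.

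Below are the 250 bases before the start site, 5′ to 3′, for 4 genes that hold the 8 letters and for Lipa, the member with the largest differences, which holds neither motif in its window. Capitals mark the 8 letters, or the 6 letters where these stand alone. Gla lies at chrX:134601006-134601255 on the minus strand, Ctsa at chr2:164833523-164833772 on the plus strand, Cln3 at chr7:126583237-126583486 on the minus strand, Mcoln1 at chr8:3500269-3500518 on the plus strand and Lipa at chr19:34527475-34527724 on the minus strand.
Gla: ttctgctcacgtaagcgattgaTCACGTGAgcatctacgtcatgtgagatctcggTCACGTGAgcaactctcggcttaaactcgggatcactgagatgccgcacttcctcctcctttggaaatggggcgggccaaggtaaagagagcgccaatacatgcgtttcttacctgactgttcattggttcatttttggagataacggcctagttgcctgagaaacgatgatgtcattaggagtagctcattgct
Ctsa: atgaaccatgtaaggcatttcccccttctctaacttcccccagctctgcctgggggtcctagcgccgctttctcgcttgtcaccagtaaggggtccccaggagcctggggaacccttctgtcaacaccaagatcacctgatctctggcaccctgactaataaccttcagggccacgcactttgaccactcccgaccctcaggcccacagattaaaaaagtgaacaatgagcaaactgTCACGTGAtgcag
Cln3: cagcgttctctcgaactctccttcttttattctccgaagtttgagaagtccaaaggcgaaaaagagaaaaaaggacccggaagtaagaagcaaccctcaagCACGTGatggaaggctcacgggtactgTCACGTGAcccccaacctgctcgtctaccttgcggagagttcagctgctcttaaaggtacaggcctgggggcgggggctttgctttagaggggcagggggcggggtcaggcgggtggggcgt
Mcoln1: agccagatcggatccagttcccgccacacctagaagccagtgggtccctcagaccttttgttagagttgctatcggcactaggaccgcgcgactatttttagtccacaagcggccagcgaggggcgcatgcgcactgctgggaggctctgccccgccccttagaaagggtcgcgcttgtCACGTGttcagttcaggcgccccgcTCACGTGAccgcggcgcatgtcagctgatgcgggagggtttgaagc
Lipa: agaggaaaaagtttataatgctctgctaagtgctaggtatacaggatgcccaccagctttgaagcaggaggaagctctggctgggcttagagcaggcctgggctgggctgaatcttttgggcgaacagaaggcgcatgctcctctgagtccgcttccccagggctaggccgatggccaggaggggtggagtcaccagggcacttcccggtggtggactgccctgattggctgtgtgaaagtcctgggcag
The 8 letters begin 228 and 195 bases before the start in Gla, 13 before it in Ctsa, 122 in Cln3 and 46 in Mcoln1. Ctsa holds a second copy just after its start, which is not printed. Ctsa and Cln3 each have a second start site, whose window holds neither motif, and the window with the 8 letters was the one shown. In the shares above, a gene counted as holding a motif if any of its windows did.

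Among the 8 proteases, 3 were higher in fibrillar than in non-fibrillar collagen, 0 were lower and 5 did not pass. Ctsa is a carboxypeptidase that also protects the galactosidase and sialidase with which it forms a complex. It measured 11.57, 11.60 and 11.64 log2 units in fibrillar collagen, 11.29, 11.33 and 11.40 in non-fibrillar collagen and 11.62, 11.73 and 11.70 in Matrigel. The fibrillar arrays lay above the non-fibrillar ones without overlap, and their range met that of Matrigel. Ctsa was 1.20-fold higher (log2 0.26 ± 0.042 SE, adjusted p = 0.0219) in fibrillar than in non-fibrillar collagen, and 1.27-fold lower (log2 -0.34 ± 0.047 SE, adjusted p = 0.00124) in non-fibrillar collagen than in Matrigel. Tpp1, a peptidase that trims tripeptides from protein ends, measured 9.23, 9.20 and 9.38 log2 units in fibrillar collagen, 8.90, 8.94 and 8.96 in non-fibrillar collagen and 9.25, 9.44 and 9.46 in Matrigel. It was 1.26-fold higher (log2 0.34 ± 0.056 SE, adjusted p = 0.0235) in fibrillar than in non-fibrillar collagen, a difference that lost its call whichever array was left out. Ctsb, a cysteine protease that many carcinomas secrete, measured 12.80, 12.85 and 12.83 log2 units in fibrillar collagen, 12.65, 12.62 and 12.69 in non-fibrillar collagen and 12.88, 12.97 and 12.96 in Matrigel. The 3 groups did not overlap, and the step between the collagen forms was small, at 1.13-fold higher (log2 0.17 ± 0.036 SE, adjusted p = 0.0423); with replicate number as a block its adjusted p was 0.0735.

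Ctsd, the main aspartic protease of the lysosome, measured 12.07, 12.07 and 12.10 log2 units in fibrillar collagen, 11.86, 11.91 and 11.96 in non-fibrillar collagen and 12.12, 12.17 and 12.20 in Matrigel. Its groups did not overlap either, but the collagen comparison was at 0.17 ± 0.039 SE, adjusted p = 0.0564. Against Matrigel, 0 of 8 proteases passed in fibrillar collagen, with differences from -0.16 to -0.026. In non-fibrillar collagen 4 of 8 were lower than in Matrigel: Ctsa, Tpp1 (-0.45 ± 0.067 SE, adjusted p = 0.00191), Ctsb (-0.28 ± 0.041 SE, adjusted p = 0.00188) and Ctsd (-0.26 ± 0.042 SE, adjusted p = 0.00322).

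The other cathepsins had no call in any comparison. Ctsl, a cysteine endopeptidase, measured 11.33, 11.35 and 11.33 log2 units in fibrillar collagen, 11.41, 11.39 and 11.44 in non-fibrillar collagen and 11.35, 11.37 and 11.37 in Matrigel, and its non-fibrillar arrays were the highest of all. After a further quantile normalization its difference from Matrigel was -0.001 in non-fibrillar collagen, against 0.050 as deposited. Its difference between collagen forms was -0.08 ± 0.033 SE, adjusted p = 0.248, the opposite sign to Ctsb and Ctsd, and it did not pass. Ctsc, which activates serine proteases of immune granules, was at -0.03 ± 0.058 SE, adjusted p = 0.814 between the collagen forms and -0.13 ± 0.053 SE, adjusted p = 0.156 for non-fibrillar collagen against Matrigel. Ctsz, a carboxypeptidase, stayed between 11.11 and 11.28 on all 9 arrays, with -0.01 ± 0.042 SE, adjusted p = 0.949 between the collagen forms. Ctsk, the collagen-cleaving cathepsin of osteoclasts, measured 5.26 to 5.62 with overlap of all groups, below the lowest array median of 5.98 over all probe sets, and was at -0.03 ± 0.091 SE, adjusted p = 0.859 between the collagen forms. The sign of that difference turned for Ctsc, Ctsz and Ctsk under at least 1 alternative.

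**Figure D2:**
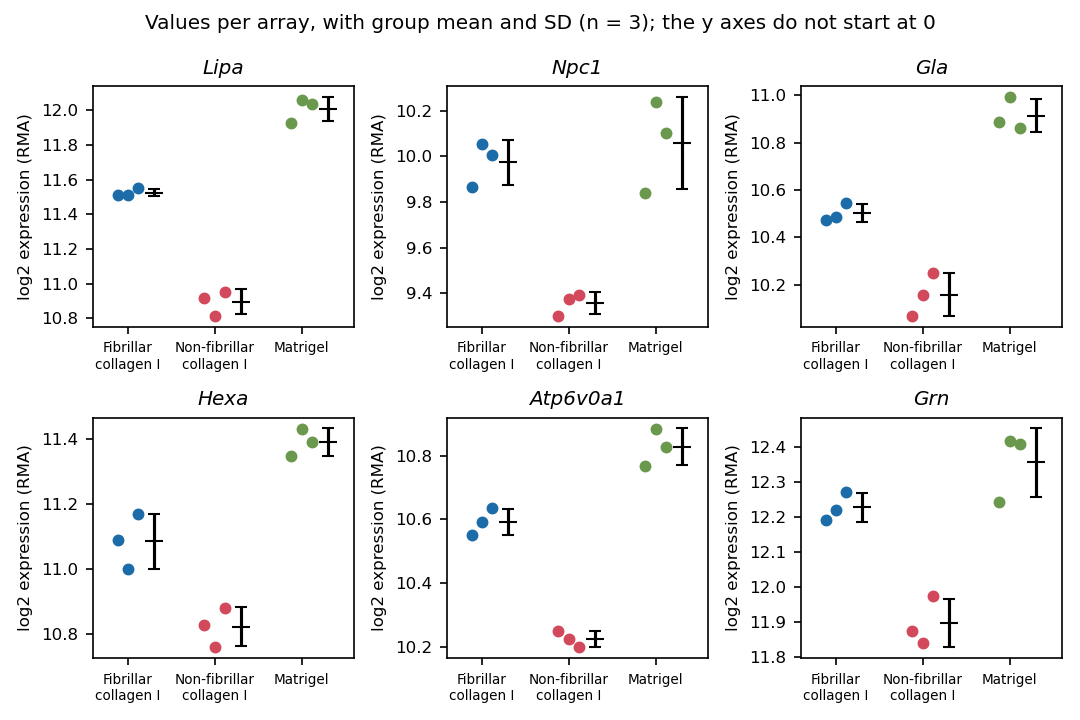
Values per array (points, log2 RMA units; the y axes do not start at 0) of 6 lysosome genes in fibrillar collagen I, non-fibrillar collagen I and Matrigel, with the group mean and SD (n = 3) as a black mark. Lipa, Gla, Hexa and Atp6v0a1 show 3 separate levels, lowest in non-fibrillar collagen and highest in Matrigel, while for Npc1 the fibrillar and Matrigel arrays overlap, as they do for Grn.

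Of 13 glycosidases and sulfatases, which take sugars and sulfate groups off glycolipids, glycoproteins and glycosaminoglycans, 4 were higher in fibrillar than in non-fibrillar collagen, 0 were lower and 9 did not pass. All 13 differences were positive, with a median of 0.19. Gla, the alpha-galactosidase that is deficient in Fabry disease, measured 10.47, 10.49 and 10.55 log2 units in fibrillar collagen, 10.07, 10.16 and 10.25 in non-fibrillar collagen and 10.89, 10.99 and 10.86 in Matrigel. Its 3 groups were apart. Gla was 1.27-fold higher (log2 0.34 ± 0.054 SE, adjusted p = 0.02) in fibrillar than in non-fibrillar collagen. It was 1.33-fold lower (log2 -0.41 ± 0.056 SE, adjusted p = 0.00421) in fibrillar collagen than in Matrigel, and 1.69-fold lower (log2 -0.76 ± 0.056 SE, adjusted p = 3.8e-05) in non-fibrillar collagen than in Matrigel. Hexa encodes the alpha chain of beta-hexosaminidase, which degrades the ganglioside GM2. Hexa measured 11.09, 10.998 and 11.17 log2 units in fibrillar collagen, 10.83, 10.76 and 10.88 in non-fibrillar collagen and 11.35, 11.43 and 11.39 in Matrigel. Again the groups did not overlap. The differences were 0.26 ± 0.056 SE, adjusted p = 0.0459 between the collagen forms, -0.30 ± 0.054 SE, adjusted p = 0.0149 for fibrillar collagen against Matrigel and -0.57 ± 0.054 SE, adjusted p = 1.7e-04 for non-fibrillar collagen against Matrigel. The first of these lost its call whichever array was left out and after centring on array medians (adjusted p = 0.0721).

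Arsb, a sulfatase that acts on dermatan and chondroitin sulfate, measured 9.99, 9.99 and 10.03 log2 units in fibrillar collagen, 9.69, 9.60 and 9.66 in non-fibrillar collagen and 10.09, 10.27 and 10.29 in Matrigel. It was 1.28-fold higher (log2 0.36 ± 0.038 SE, adjusted p = 0.00821) in fibrillar than in non-fibrillar collagen and 1.49-fold lower (log2 -0.57 ± 0.057 SE, adjusted p = 2.2e-04) in non-fibrillar collagen than in Matrigel, with -0.21 ± 0.057 SE, adjusted p = 0.0734 for fibrillar collagen against Matrigel. Arsb alone among the members had 2 probe sets; the dimmer one gave 0.30, -0.32 and -0.62 for the same comparisons. Gaa, which breaks down glycogen, measured 8.61, 8.58 and 8.74 log2 units in fibrillar collagen, 8.40, 8.41 and 8.36 in non-fibrillar collagen and 8.64, 8.63 and 8.68 in Matrigel. Its fibrillar and Matrigel arrays overlapped and both lay above the non-fibrillar arrays. It was at 0.26 ± 0.051 SE, adjusted p = 0.0382 between the collagen forms (adjusted p = 0.0647 with replicate number as a block) and -0.26 ± 0.049 SE, adjusted p = 0.00609 for non-fibrillar collagen against Matrigel.

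Neu1, the sialidase bound by the protein that Ctsa encodes, measured 7.81, 7.76 and 7.81 log2 units in fibrillar collagen, 7.69, 7.67 and 7.75 in non-fibrillar collagen and 8.01, 8.04 and 7.99 in Matrigel. It was lower than in Matrigel in both collagen forms, at -0.22 ± 0.040 SE, adjusted p = 0.0176 in fibrillar and -0.30 ± 0.040 SE, adjusted p = 9.2e-04 in non-fibrillar collagen, while the collagen forms differed by 0.09 ± 0.038 SE, adjusted p = 0.244. The call for fibrillar collagen was lost in 2 of 6 refits without 1 array and after a further quantile normalization (adjusted p = 0.0568). The mannosidases Man2b1 and Manba were lower in non-fibrillar collagen than in Matrigel, at -0.47 ± 0.080 SE, adjusted p = 0.00422 and -0.43 ± 0.079 SE, adjusted p = 0.00593. For both, the collagen comparison did not pass (0.25 ± 0.074 SE, adjusted p = 0.108 and 0.20 ± 0.081 SE, adjusted p = 0.211). Galns (-0.27 ± 0.065 SE, adjusted p = 0.0196) and Sgsh (-0.19 ± 0.053 SE, adjusted p = 0.0417), sulfatases of keratan and heparan sulfate, were also lower in non-fibrillar collagen than in Matrigel. Each lost that call in 5 of 6 refits without 1 array. Naglu, a heparan sulfate glucosaminidase, was at -0.28 ± 0.086 SE, adjusted p = 0.0621 in the same comparison.

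The remaining members of this class passed in 0 comparisons. Glb1, the beta-galactosidase read out in senescence staining, stayed between 9.17 and 9.26 on all 9 arrays and was at 0.01 ± 0.035 SE, adjusted p = 0.857 between the collagen forms. Gusb, a beta-glucuronidase, had its highest mean in fibrillar collagen, at 0.19 ± 0.064 SE, adjusted p = 0.154 against non-fibrillar collagen and 0.07 ± 0.058 SE, adjusted p = 0.59 against Matrigel. Arsa, which desulfates sulfatides, was at 0.15 ± 0.078 SE, adjusted p = 0.32 and 0.06 ± 0.072 SE, adjusted p = 0.703 in the same comparisons. In all, 3 of the 13 were lower in fibrillar collagen than in Matrigel (Gla, Hexa and Neu1) and 9 in non-fibrillar collagen than in Matrigel.

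**Figure D3:**
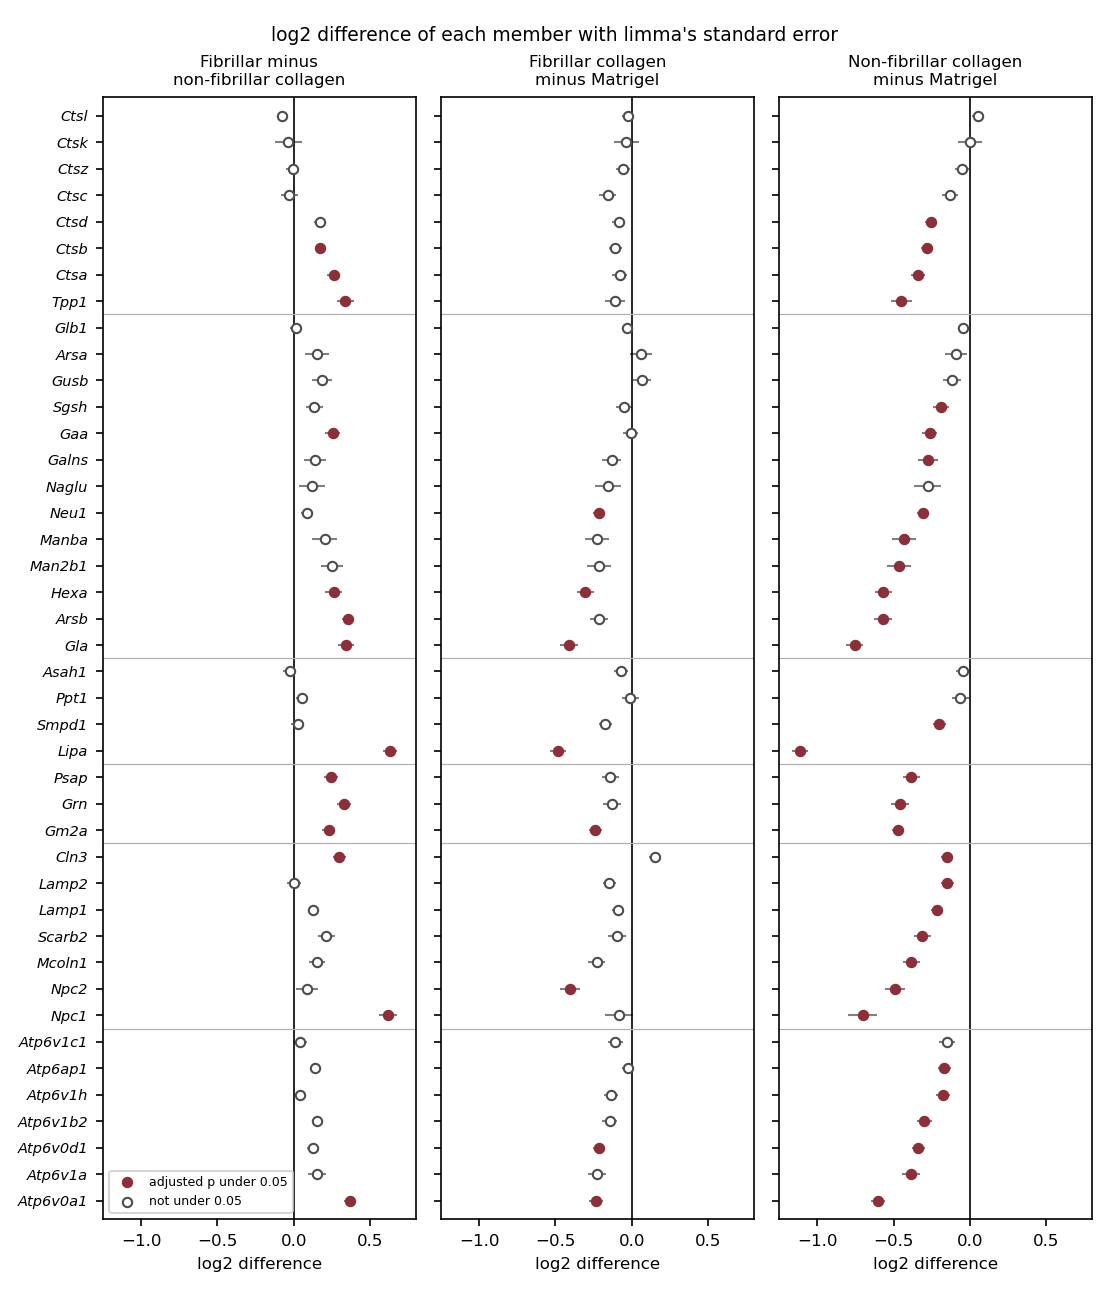
log2 difference (points) with limma's standard error (bars, n = 3 arrays per group) of each lysosome gene, grouped by role, for fibrillar minus non-fibrillar collagen (left), fibrillar collagen minus Matrigel (middle) and non-fibrillar collagen minus Matrigel (right); filled points passed an adjusted p of 0.05. The filled points number 14, all above 0, on the left, 8, all below 0, in the middle and 31, all below 0, on the right, and Lipa lies farthest from 0 in each panel.

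Lipa had the largest difference of all members in each comparison, while of the other 3 lipid hydrolases Smpd1 passed in 1 comparison and Asah1 and Ppt1 in 0. Lipa encodes the acid lipase that frees cholesterol and fatty acids from the esters of lipoproteins that cells take up. It measured 11.51, 11.51 and 11.55 log2 units in fibrillar collagen, 10.92, 10.81 and 10.95 in non-fibrillar collagen and 11.93, 12.06 and 12.04 in Matrigel. The 3 groups did not overlap, and fibrillar collagen lay about midway on the log2 scale. Lipa was 1.55-fold higher (log2 0.63 ± 0.046 SE, adjusted p = 0.0042) in fibrillar than in non-fibrillar collagen. It was 1.40-fold lower (log2 -0.48 ± 0.051 SE, adjusted p = 0.00118) in fibrillar collagen than in Matrigel and 2.16-fold lower (log2 -1.11 ± 0.051 SE, adjusted p = 4.3e-06) in non-fibrillar collagen than in Matrigel. Fibrillar replicates 1 and 2 carried an identical deposited value, so the spread seen in that group may be too small. None of its 3 calls was lost when any array was left out.

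Smpd1, the acid sphingomyelinase, measured 10.08, 10.04 and 10.11 log2 units in fibrillar collagen, 10.06, 9.998 and 10.10 in non-fibrillar collagen and 10.29, 10.21 and 10.25 in Matrigel. It was lower in non-fibrillar collagen than in Matrigel at -0.20 ± 0.043 SE, adjusted p = 0.0128, with -0.17 ± 0.043 SE, adjusted p = 0.0605 in fibrillar collagen and 0.03 ± 0.042 SE, adjusted p = 0.749 between the collagen forms. Asah1, the acid ceramidase that acts after it, stayed within 10.38 to 10.56 on all arrays, and differed by -0.02 ± 0.043 SE, adjusted p = 0.776 between the collagen forms and -0.05 ± 0.044 SE, adjusted p = 0.591 for non-fibrillar collagen against Matrigel. Ppt1, which removes palmitate from proteins, was at 0.05 ± 0.041 SE, adjusted p = 0.504 and -0.06 ± 0.055 SE, adjusted p = 0.55 in the same comparisons.

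All 3 activator and cofactor proteins were higher in fibrillar than in non-fibrillar collagen, and all 3 were lower in non-fibrillar collagen than in Matrigel. Psap is cut into the saposins, which lift sphingolipids out of membranes for their hydrolases. Psap measured 12.61, 12.65 and 12.66 log2 units in fibrillar collagen, 12.37, 12.35 and 12.48 in non-fibrillar collagen and 12.68, 12.83 and 12.84 in Matrigel. It was 1.18-fold higher (log2 0.24 ± 0.047 SE, adjusted p = 0.034) in fibrillar than in non-fibrillar collagen and 1.30-fold lower (log2 -0.38 ± 0.056 SE, adjusted p = 0.00171) in non-fibrillar collagen than in Matrigel. The collagen call was lost in 5 of 6 refits without 1 array and after centring on array medians (adjusted p = 0.0542). Fibrillar collagen against Matrigel did not pass (-0.14 ± 0.056 SE, adjusted p = 0.224), although those arrays did not overlap. Gm2a, the activator that presents GM2 to beta-hexosaminidase, measured 10.88, 10.90 and 10.89 log2 units in fibrillar collagen, 10.72, 10.59 and 10.67 in non-fibrillar collagen and 11.13, 11.14 and 11.11 in Matrigel. Its mean was 10.89 ± 0.011 in fibrillar collagen, 10.66 ± 0.066 in non-fibrillar collagen and 11.13 ± 0.015 in Matrigel (SD, n = 3 each). It passed in each comparison: 0.23 ± 0.043 SE, adjusted p = 0.0319 between the collagen forms (adjusted p = 0.0555 with replicate number as a block), -0.24 ± 0.042 SE, adjusted p = 0.0145 for fibrillar collagen against Matrigel and -0.47 ± 0.042 SE, adjusted p = 1.3e-04 for non-fibrillar collagen against Matrigel. Grn, progranulin, is a secreted growth factor that is also needed for lysosomal function. It measured 12.19, 12.22 and 12.27 log2 units in fibrillar collagen, 11.88, 11.84 and 11.97 in non-fibrillar collagen and 12.24, 12.42 and 12.41 in Matrigel. Fibrillar and Matrigel arrays overlapped, and both lay above all non-fibrillar arrays. Grn was 1.26-fold higher (log2 0.33 ± 0.048 SE, adjusted p = 0.0163) in fibrillar than in non-fibrillar collagen, and 1.38-fold lower (log2 -0.46 ± 0.058 SE, adjusted p = 7.9e-04) in non-fibrillar collagen than in Matrigel.

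The proteins that hand cholesterol out of the lysosome passed in different comparisons. Npc1, the membrane transporter, measured 9.86, 10.06 and 10.01 log2 units in fibrillar collagen, 9.30, 9.38 and 9.39 in non-fibrillar collagen and 9.84, 10.24 and 10.10 in Matrigel. Its fibrillar and Matrigel arrays overlapped, well above the non-fibrillar arrays. Npc1 was 1.54-fold higher (log2 0.62 ± 0.059 SE, adjusted p = 0.00655) in fibrillar than in non-fibrillar collagen and 1.63-fold lower (log2 -0.70 ± 0.092 SE, adjusted p = 9.6e-04) in non-fibrillar collagen than in Matrigel, while fibrillar collagen and Matrigel were at -0.08 ± 0.092 SE, adjusted p = 0.674. Npc2, the soluble protein that passes cholesterol to Npc1, measured 10.28, 10.21 and 10.38 log2 units in fibrillar collagen, 10.08, 10.21 and 10.32 in non-fibrillar collagen and 10.69, 10.66 and 10.72 in Matrigel. Here the collagen groups overlapped (0.09 ± 0.073 SE, adjusted p = 0.533), and both lay below Matrigel, at -0.40 ± 0.066 SE, adjusted p = 0.0105 in fibrillar and -0.49 ± 0.066 SE, adjusted p = 0.00109 in non-fibrillar collagen. The difference between these patterns was not itself tested.

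Among the membrane proteins, Cln3, whose loss causes juvenile Batten disease, was the 1 member whose fibrillar arrays all lay above those of both other groups. It measured 9.66, 9.71 and 9.69 log2 units in fibrillar collagen, 9.34, 9.44 and 9.38 in non-fibrillar collagen and 9.54, 9.54 and 9.54 in Matrigel. Cln3 was 1.23-fold higher (log2 0.30 ± 0.041 SE, adjusted p = 0.0142) in fibrillar than in non-fibrillar collagen, and 0.15 ± 0.040 SE, adjusted p = 0.0734 against Matrigel, which did not pass. All 3 Matrigel arrays carried an identical deposited value for Cln3, so their spread is not known. Cln3 was also lower in non-fibrillar collagen than in Matrigel (-0.15 ± 0.040 SE, adjusted p = 0.0364), a call lost in 5 of 6 refits without 1 array.

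Lamp1, the most abundant glycoprotein of the lysosomal membrane, measured 12.18, 12.13 and 12.16 log2 units in fibrillar collagen, 12.03, 12.03 and 12.03 in non-fibrillar collagen and 12.26, 12.26 and 12.23 in Matrigel. The groups did not overlap, though the steps were small, and only that between non-fibrillar collagen and Matrigel passed (-0.22 ± 0.036 SE, adjusted p = 0.00316; 0.13 ± 0.033 SE, adjusted p = 0.0763 between the collagen forms). Lamp2, its partner that also serves chaperone-mediated autophagy, was at 0.0026 ± 0.045 SE, adjusted p = 0.983 between the collagen forms and -0.15 ± 0.043 SE, adjusted p = 0.0491 for non-fibrillar collagen against Matrigel. The second call was lost whichever array was left out and with replicate number as a block (adjusted p = 0.0536). Scarb2, the receptor that carries beta-glucocerebrosidase to the lysosome, was lower in non-fibrillar collagen than in Matrigel at -0.31 ± 0.057 SE, adjusted p = 0.00594, and at 0.21 ± 0.056 SE, adjusted p = 0.0804 between the collagen forms. Mcoln1, the calcium channel of the lysosome, measured 10.25, 10.25 and 10.38 log2 units in fibrillar collagen, 10.11, 10.10 and 10.22 in non-fibrillar collagen and 10.46, 10.59 and 10.53 in Matrigel. Its groups did not overlap, with -0.38 ± 0.056 SE, adjusted p = 0.00168 for non-fibrillar collagen against Matrigel and 0.15 ± 0.054 SE, adjusted p = 0.163 between the collagen forms. In this class 2 of 7 members were higher in fibrillar than in non-fibrillar collagen, 1 of 7 was lower in fibrillar collagen than in Matrigel and 7 of 7 were lower in non-fibrillar collagen than in Matrigel.

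Of the 7 proton pump members, 1 was higher in fibrillar than in non-fibrillar collagen, 2 were lower in fibrillar collagen than in Matrigel and 6 were lower in non-fibrillar collagen than in Matrigel. All 7 differences between the collagen forms were positive, with a median of 0.14. Atp6v0a1, the large V0 subunit that helps to place the pump, measured 10.55, 10.59 and 10.63 log2 units in fibrillar collagen, 10.25, 10.23 and 10.20 in non-fibrillar collagen and 10.77, 10.88 and 10.83 in Matrigel. It had 3 separate levels. The first step was 1.29-fold higher (log2 0.37 ± 0.038 SE, adjusted p = 0.00775) in fibrillar than in non-fibrillar collagen. Atp6v0a1 was 1.18-fold lower (log2 -0.23 ± 0.044 SE, adjusted p = 0.0195) in fibrillar collagen than in Matrigel and 1.52-fold lower (log2 -0.60 ± 0.044 SE, adjusted p = 3.5e-05) in non-fibrillar collagen than in Matrigel. The call for fibrillar collagen was lost in 4 of 6 refits without 1 array and with only the 6 arrays of that comparison in the fit (adjusted p = 0.0585). Atp6v0d1, the V0 subunit at the joint with the central stalk, measured 10.57, 10.53 and 10.62 log2 units in fibrillar collagen, 10.44, 10.43 and 10.48 in non-fibrillar collagen and 10.74, 10.80 and 10.82 in Matrigel. It was lower than in Matrigel in both forms of collagen (-0.21 ± 0.041 SE, adjusted p = 0.0223 in fibrillar, -0.34 ± 0.041 SE, adjusted p = 6.7e-04 in non-fibrillar) and at 0.12 ± 0.039 SE, adjusted p = 0.125 between them. The call for fibrillar collagen was lost in 4 of 6 refits without 1 array, with only the 6 arrays of that comparison in the fit (adjusted p = 0.0594) and after centring on array medians (adjusted p = 0.0562).

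Of the V1 subunits and the accessory protein, 0 passed between the collagen forms. Atp6v1a, the catalytic subunit, measured 10.14, 10.01 and 10.19 log2 units in fibrillar collagen, 9.96, 9.91 and 10.02 in non-fibrillar collagen and 10.29, 10.42 and 10.32 in Matrigel. Atp6v1b2, its nucleotide-binding partner, measured 11.34, 11.40 and 11.36 log2 units in fibrillar collagen, 11.18, 11.23 and 11.22 in non-fibrillar collagen and 11.42, 11.57 and 11.54 in Matrigel. Both were lower in non-fibrillar collagen than in Matrigel (-0.39 ± 0.059 SE, adjusted p = 0.00226 and -0.30 ± 0.048 SE, adjusted p = 0.00284). Between the collagen forms Atp6v1b2 did not overlap but missed the threshold (0.15 ± 0.036 SE, adjusted p = 0.0559), and Atp6v1a overlapped (0.15 ± 0.058 SE, adjusted p = 0.192). Atp6v1h, a regulatory subunit, and Atp6ap1, an accessory protein of pump assembly, were lower in non-fibrillar collagen than in Matrigel at -0.18 ± 0.045 SE, adjusted p = 0.0279 and -0.17 ± 0.041 SE, adjusted p = 0.0237. Those calls were lost in 3 and 5 of 6 refits without 1 array. Atp6v1c1, a subunit of the peripheral stalk, was at -0.15 ± 0.051 SE, adjusted p = 0.0841 in that comparison.

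Other genes of the pathway were read in the same fits. Of 23 other hydrolases measured, fibrillar collagen had 6 higher and 1 lower than non-fibrillar collagen (median 0.081). The 3 with the smallest p were the phospholipase-like Plbd2 (0.32 ± 0.051 SE, adjusted p = 0.0204), the asparaginyl endopeptidase Lgmn (0.38 ± 0.062 SE, adjusted p = 0.0224) and the dipeptidyl peptidase Dpp7 (0.36 ± 0.059 SE, adjusted p = 0.0229), all higher. In non-fibrillar collagen against Matrigel 12 were lower and 1 higher, led by Dpp7 (-0.59 ± 0.059 SE, adjusted p = 2.2e-04), Plbd2 (-0.64 ± 0.065 SE, adjusted p = 2.7e-04) and the aminopeptidase Ctsh, which was the higher one (0.36 ± 0.044 SE, adjusted p = 6.5e-04). In fibrillar collagen against Matrigel, Ctsf (-0.36 ± 0.070 SE, adjusted p = 0.0233) and Plbd2 (-0.32 ± 0.065 SE, adjusted p = 0.0288) were lower.

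Of 16 other lysosomal membrane proteins, 3 were higher in fibrillar than in non-fibrillar collagen and 8 were lower in non-fibrillar collagen than in Matrigel. Examples were the cation channel Tpcn1 (0.34 ± 0.047 SE, adjusted p = 0.015 in the first and -0.51 ± 0.062 SE, adjusted p = 6.7e-04 in the second) and the chloride exchanger Clcn7 (0.18 ± 0.038 SE, adjusted p = 0.0421 and -0.32 ± 0.044 SE, adjusted p = 0.00132). The sialic acid exporter Slc17a5 was also higher in fibrillar than in non-fibrillar collagen (0.30 ± 0.062 SE, adjusted p = 0.0411), and Ostm1, the partner of Clcn7, was lower in non-fibrillar collagen than in Matrigel (-0.33 ± 0.050 SE, adjusted p = 0.00233). None of the 16 passed in fibrillar collagen against Matrigel, where Mfsd8 had the smallest p (-0.25 ± 0.062 SE, adjusted p = 0.0605).

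The 17 other proton pump subunits measured did not move as a block. Their median was 0.013 between the collagen forms, -0.11 for fibrillar collagen against Matrigel and -0.016 for non-fibrillar collagen against Matrigel. Tcirg1, an alternative form of the subunit that Atp6v0a1 encodes, measured 9.94, 9.98 and 10.02 log2 units in fibrillar collagen, 9.66, 9.67 and 9.66 in non-fibrillar collagen and 10.03, 10.19 and 10.08 in Matrigel. It was higher in fibrillar than in non-fibrillar collagen (0.31 ± 0.036 SE, adjusted p = 0.00981) and lower in non-fibrillar collagen than in Matrigel (-0.44 ± 0.048 SE, adjusted p = 3.5e-04). Atp6v0e, a small V0 subunit, was lower in fibrillar collagen than in the non-fibrillar form (-0.22 ± 0.039 SE, adjusted p = 0.0289) and than in Matrigel (-0.23 ± 0.047 SE, adjusted p = 0.0292). In non-fibrillar collagen against Matrigel, Atp6v0d2 (-0.32 ± 0.049 SE, adjusted p = 0.00206) and Rnasek (-0.19 ± 0.050 SE, adjusted p = 0.0331) were the other subunits called, both lower. Atp6v0d2 measured only 3.70 to 4.14 log2 units on the 9 arrays, below the lowest array median of 5.98, so that difference lies in the dim range of the arrays.

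Among 12 genes of mannose 6-phosphate tagging and sorting, 2 were higher in fibrillar than in non-fibrillar collagen and 2 were lower in non-fibrillar collagen than in Matrigel. Igf2r, the large mannose 6-phosphate receptor, measured 9.75, 9.71 and 9.76 log2 units in fibrillar collagen, 9.17, 9.10 and 9.20 in non-fibrillar collagen and 9.41, 9.59 and 9.58 in Matrigel. Its fibrillar arrays were the highest of all. It was 1.502-fold higher (log2 0.59 ± 0.039 SE, adjusted p = 0.00413) in fibrillar than in non-fibrillar collagen, at 0.21 ± 0.054 SE, adjusted p = 0.0641 for fibrillar collagen against Matrigel, and -0.37 ± 0.054 SE, adjusted p = 0.00177 for non-fibrillar collagen against Matrigel. Gnptab, the enzyme that starts the tag, was at 0.20 ± 0.037 SE, adjusted p = 0.0297 and -0.26 ± 0.043 SE, adjusted p = 0.00337 for the first and last of these.

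Of 11 regulators of the lysosome genes, 3 were higher in fibrillar than in non-fibrillar collagen, 2 were lower in fibrillar collagen than in Matrigel and 6 were lower in non-fibrillar collagen than in Matrigel. Fnip2, a partner of folliculin in nutrient sensing at the lysosome, measured 8.80, 8.80 and 8.87 log2 units in fibrillar collagen, 8.35, 8.32 and 8.32 in non-fibrillar collagen and 9.11, 9.16 and 8.999 in Matrigel. Its differences were 0.49 ± 0.036 SE, adjusted p = 0.0042 between the collagen forms, -0.27 ± 0.048 SE, adjusted p = 0.0168 for fibrillar collagen against Matrigel and -0.76 ± 0.048 SE, adjusted p = 1.7e-05 for non-fibrillar collagen against Matrigel. Folliculin itself, Flcn, was at 0.23 ± 0.036 SE, adjusted p = 0.02 and -0.38 ± 0.044 SE, adjusted p = 4.6e-04 in the first and last comparisons, and the GTPase Rragd at 0.35 ± 0.062 SE, adjusted p = 0.0293, -0.34 ± 0.064 SE, adjusted p = 0.019 and -0.69 ± 0.064 SE, adjusted p = 1.5e-04 in all 3. Tfeb, named here after its values were seen, was lower in non-fibrillar collagen than in Matrigel at -0.40 ± 0.058 SE, adjusted p = 0.00153 and at 0.23 ± 0.060 SE, adjusted p = 0.0748 between the collagen forms. Its relatives Tfe3 and Mitf did not pass in any comparison. Tfe3 was at -0.03 ± 0.042 SE, adjusted p = 0.701 between the collagen forms. Its difference for non-fibrillar collagen against Matrigel was -1e-05 ± 0.049 SE. Mitf was at -0.02 ± 0.079 SE, adjusted p = 0.888 and -0.18 ± 0.091 SE, adjusted p = 0.252 in the same comparisons. Mitf measured 5.79 to 6.30 log2 units, around the array medians of 5.98 to 6.05.

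Of 7 cystatins and other protease inhibitors measured, Serpinb9, which inhibits serine proteases, was lowest in fibrillar collagen, with -0.37 ± 0.061 SE, adjusted p = 0.0231 against non-fibrillar collagen and -0.54 ± 0.058 SE, adjusted p = 0.00131 against Matrigel. In non-fibrillar collagen against Matrigel, the cystatins Cst6 (-0.20 ± 0.054 SE, adjusted p = 0.0326) and Cst3 (-0.17 ± 0.049 SE, adjusted p = 0.0437) were lower. Their 7-gene mean per array, relative to the 9-array mean, was -0.121 to -0.062 in fibrillar collagen, -0.043 to 0.020 in non-fibrillar collagen and 0.071 to 0.136 in Matrigel.

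**Figure D4:**
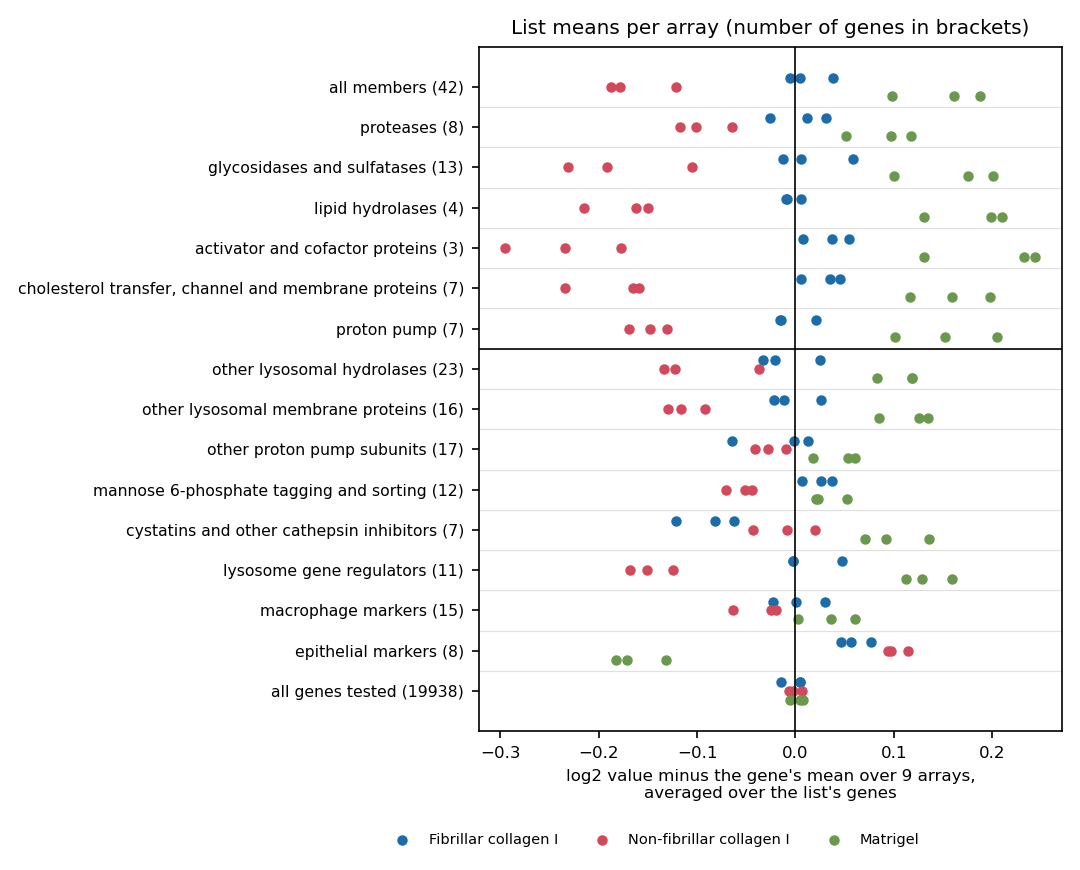
Mean over each list's genes of the log2 value minus the gene's mean over 9 arrays (x axis), 1 point per array, for fibrillar collagen I (blue), non-fibrillar collagen I (red) and Matrigel (green); the classes of the 42 lysosome genes lie above the black line and other lists, with their numbers of genes, below it. The 42 genes averaged -0.005 to 0.038 in fibrillar collagen, -0.187 to -0.121 in non-fibrillar collagen and 0.098 to 0.188 in Matrigel, while all genes tested stayed between -0.015 and 0.008.

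Markers of cell types were read on the same arrays. The keratins Krt8 and Krt18 measured 13.12 to 13.33 and 12.60 to 12.92, and the keratin Krt7 9.42 to 10.68, above the array medians of 5.98 to 6.05, while Krt19 and Cldn4 stayed below them on all 9 arrays. Of 15 macrophage markers, 12 stayed below the lowest array median on all 9 arrays, among them the defining Ptprc (4.72 to 5.12), Adgre1 (3.82 to 4.09) and Csf1r (4.72 to 4.84). The mean of that list was 5.30 to 5.35 in fibrillar collagen, 5.26 to 5.30 in non-fibrillar collagen and 5.32 to 5.38 in Matrigel. Cd68, which is also a lysosomal membrane glycoprotein, was 1 of the 2 above it on all arrays. It moved with the members, at 0.83 ± 0.081 SE, adjusted p = 0.00673 between the collagen forms, -0.55 ± 0.081 SE, adjusted p = 0.0068 for fibrillar collagen against Matrigel and -1.38 ± 0.081 SE, adjusted p = 1.1e-05 for non-fibrillar collagen against Matrigel. Cd14, the other, was at -0.37 ± 0.079 SE, adjusted p = 0.0466 between the collagen forms and higher in non-fibrillar collagen than in Matrigel (0.28 ± 0.073 SE, adjusted p = 0.0331).

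Other marker genes also moved with the matrix. Of 8 epithelial markers, 1 was lower in fibrillar collagen than in the non-fibrillar form, 2 were higher in fibrillar collagen than in Matrigel and 4 in non-fibrillar collagen than in Matrigel, led by Krt7 (-0.30 ± 0.034 SE, adjusted p = 0.00918 in the first, 0.90 ± 0.039 SE, adjusted p = 8.7e-06 in the second and 1.20 ± 0.039 SE, adjusted p = 5.6e-07 in the last comparison). The list mean was 8.73 to 8.76 in fibrillar collagen, 8.77 to 8.79 in non-fibrillar collagen and 8.50 to 8.55 in Matrigel. These list means run in the reverse order of the lysosome genes. Between the collagen forms, however, 3 of the 8 markers had a positive and 5 a negative difference, with a median of -0.029. Krt7 was the only 1 called there. Among 8 fibroblast markers only the growth factor receptor Pdgfra was called: 0.67 ± 0.095 SE, adjusted p = 0.0153 between the collagen forms and -1.005 ± 0.094 SE, adjusted p = 1.5e-04 for non-fibrillar collagen against Matrigel, with -0.33 ± 0.094 SE, adjusted p = 0.0878 for fibrillar collagen against Matrigel. The adipocyte markers Fabp4 (-0.81 ± 0.083 SE, adjusted p = 9.0e-04 in fibrillar and -1.02 ± 0.083 SE, adjusted p = 7.0e-05 in non-fibrillar collagen) and Pparg (-0.51 ± 0.069 SE, adjusted p = 0.00121 in non-fibrillar collagen) were lower than in Matrigel. The acid phosphatase Acp5, a marker of osteoclasts and itself lysosomal, was lower than in Matrigel in fibrillar (-0.33 ± 0.068 SE, adjusted p = 0.0273) and non-fibrillar collagen (-0.36 ± 0.068 SE, adjusted p = 0.00729), and the endothelial marker Kdr was at -0.47 ± 0.085 SE, adjusted p = 0.00553 in non-fibrillar collagen. Fabp4 (5.23 to 6.47) and Kdr (5.59 to 6.33) lay around the array medians. Of 7 lymphocyte markers 0 passed in any comparison, with the smallest p for Nkg7 in fibrillar collagen against Matrigel (0.24 ± 0.058 SE, adjusted p = 0.0546). All arrays came from the 1 cell line D2.OR, so these markers were read as expression within that line. In these bulk samples a smaller share of cells that express a gene and less RNA per cell cannot be told apart. The part of these markers in the members' differences was not tested.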

How the data were processed

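The authors deposited log2 signal values, 1 for each probe set and array. The submitters' processing notes name RMA and Affymetrix Power Tools. The sources used here do not give versions, settings or whether the 9 arrays were normalized together. RMA makes the arrays' distributions alike, so a shift of most genes at once would not show. Array medians were 5.98 to 6.05 over 35512 probe sets, and signal is limited by 3 arrays per group, not by read depth. GEO's platform annotation gave 1 gene symbol for 21789 probe sets, several for 1621, which were not named, and none for 12102. The probe set with the highest mean stood for each of 19938 genes, 999 of which had several. Groups came from sample titles. Differences were tested with limma 3.58.1 under R 4.3.3 (two-sided moderated tests after lmFit and eBayes, Benjamini-Hochberg over all 19938 genes, threshold 0.05), the collagen forms on their own 6 arrays and the contrasts with Matrigel in 1 fit of 9. Standard errors are limma's, and the procedure was tested on simulated data. That simulation used independent normal noise and did not model the identical deposited values. Its added differences were larger than most of the members' differences, so it does not cover such small steps.

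The members, the other lists and the markers were chosen with earlier results of these data known. Every member is accounted for. Of each other list, up to 3 called genes with the smallest p were named per comparison, or 1 where none passed, and marker lists were read by their called genes and defining markers. Tfeb, Tfe3 and Mitf were named outside this rule, after their values were seen. Deviations of same-numbered fibrillar and non-fibrillar arrays had r = 0.221, 0.143 and 0.242 across genes, which are not independent replicates. No r was computed for differently numbered arrays, and the labels do not say that a number marks a shared culture. The main fits were unpaired, and the fit was repeated with replicate number as a block. Sequences, starts and strands are RefSeq's on GRCm38.p6. Alternatives were the other choice of arrays in each fit (all 9, or the 6 compared), another normalization, centring, filters on dim genes, a trended robust prior, other thresholds, array weights, a mean over a gene's probe sets and leaving out each array.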

Additional observations from a re-analysis of the deposited data

How the results depend on the processing

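No member that passed in a comparison reversed its direction there under any alternative. Of those that did not pass, 6 of 28 between the collagen forms (Ctsc, Ctsk, Ctsz, Glb1, Asah1 and Lamp2), 4 of 34 in fibrillar collagen against Matrigel (Ctsk, Gaa, Ppt1 and Npc1) and 2 of 11 in non-fibrillar collagen against Matrigel (Ctsk and Ctsl) changed sign under at least 1, all with differences of at most 0.084 log2 units in size. Between the collagen forms, 3 to 8 members were higher in fibrillar collagen when 1 array was left out, 4 at an adjusted p under 0.01 and 11 with replicate number as a block, where Ctsb, Gaa and Gm2a lost their calls. Centring on array medians ended those of Ctsb, Hexa, Gaa and Psap. The other settings gave 10 to 20, and 0 members were lower in each. In fibrillar collagen against Matrigel, 3 to 9 members were lower when 1 array was left out, 13 with genes under 7 log2 units left out, 13 with a trended robust prior and 2 at an adjusted p under 0.01. There Cln3 made 1 higher member with genes under 6 or under 7 left out, with the trended robust prior and at an adjusted p under 0.1. In non-fibrillar collagen against Matrigel, centring ended the calls of Sgsh, Smpd1, Lamp2, Cln3, Atp6v1h and Atp6ap1, and 24 to 33 members were lower under every setting. The block gave 10 and 31 lower members in the contrasts with Matrigel. Deviations of same-numbered arrays there had r of 0.0968 to 0.253 for fibrillar and 0.0449 to 0.135 for non-fibrillar collagen. Leaving out dim genes shortens the list that p-values are adjusted over and also changes the genes from which limma estimates the common spread. The parts of these in the shift were not separated, and the cause of the other shifts was not tested. With 3 arrays per group, small steps near the threshold are not settled.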

Other observations

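In 29 of 42 members (69.0%, against 21.1% of all genes tested) each fibrillar array was higher than the non-fibrillar array of the same number. In 2 (4.76%, against 26.2%) each was lower. Members whose collagen groups did not overlap fall in these counts under any pairing, so the counts are not separate evidence. The labels do not say that same numbers mark pairs.

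Identical deposited values on at least 2 of the 9 arrays occurred in 6 of 42 members (14.3%) and in 11876 of 19938 genes (59.6%). Within a group they occurred in Lipa and Asah1 (fibrillar replicates 1 and 2), in Ctsl (2 Matrigel arrays) and in Cln3 (all 3 Matrigel arrays, at 9.54 log2 units). Of all genes tested, 498 had the same value on all 3 fibrillar arrays, 606 on all 3 non-fibrillar arrays and 418 on all 3 Matrigel arrays. These genes were among those from which limma estimates the common spread, which enters the standard error and adjusted p of every member. How far the members' calls depend on them was not tested. Matrigel replicate 1 had the lowest mean over the 42 members in its group, at 0.098 relative to the 9-array mean, against 0.188 and 0.161 for replicates 2 and 3.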
